A study of Mus musculus with 7 samples.

Results

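Skin keeps water in with a layer of dead, cross-linked cells, and the bladder keeps urine out of the blood with a living lining, the urothelium. This account follows 36 genes of the cornified epidermis and of desmosomes, listed by name for their known roles, through bladder and whole newborn mouse. Of these, 34 had a probe set that the platform annotation assigned to a single gene, out of 18193 genes measured in this way. Dsg3 had no probe set of its own, and the probe sets that name Sprr2a name several near-identical copies, so neither has a value here. Where a gene had several probe sets, that with the highest mean over the 7 arrays stood for it.

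Whole bladders came from male FVB/N mice that carry a SMGA/EGFP transgene, a green fluorescent reporter under the promoter of smooth muscle gamma-actin. There were 3 arrays from adult mice (Theiler stage 28) and 3 from postnatal day 1 mice (Theiler stage 27), each from an unpooled sample of a grossly dissected bladder, so muscle, connective tissue and urothelium were measured together. In such tissue, fewer cells of a type and less RNA per cell cannot be told apart. The other array was a pool of 4 male and 4 female wild-type FVB/N mice of postnatal day 1. Its title names bladders, but its source and protocol describe whole animals. It therefore differs from the bladders in tissue, sex, transgene and pooling, and from the adult bladders also in age. It mixes skin with every other organ, so a level in it is not the level of skin. RNA of all samples went through 2 rounds of amplification before hybridization to Affymetrix mouse 430 2.0 arrays. Adult tissue was kept in liquid nitrogen and newborn bladder at a freezer's temperature, which means that effects of stage and of storage cannot be told apart. The labels give no litters or dates, and p-values measure only the spread between these samples.

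In the epidermis, dividing basal cells give rise to suprabasal cells, which fill with the keratins Krt1 and Krt10 and later with profilaggrin. Under the membrane, transglutaminases then join loricrin, involucrin, small proline-rich proteins, envoplakin and periplakin into the cornified envelope, while lipoxygenases and the transporter Abca12 build its lipid coat. Desmosomes hold the cells together: desmogleins and desmocollins span the gap between neighbours, plakophilins and plakoglobin bind their tails, and desmoplakin ties them to keratin. The surface cells of the urothelium are alive, carry plaques of uroplakins and form no cornified layer, but they too are joined by desmosomes.

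The bladder arrays read as bladder on urothelial markers, none of which is a member. Of 11 such markers, all 11 lay above the array median in every bladder array, and their summed intensity was 146900 to 198000 there against 11790 in the whole newborn. The 12 markers of suprabasal and cornified epidermis are all members and so give no separate check; they summed to 257100 in the whole newborn, 4033 to 7539 in adult and 6180 to 7238 in postnatal day 1 bladder. Transcripts of male accessory glands were present in adult replicates 1 and 3: 11 such markers summed to 10840 and 10870 there, to 464.2 in adult replicate 2 and to 420 to 614 in postnatal day 1 bladder. Median intensity ran from 208.8 to 311.7 over the bladder arrays and was 434.1 in the whole newborn. Values were not centred, and the effect of centring is given with the results it alters.

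Some of the members lie in a run of genes on chromosome 3, the epidermal differentiation complex. It holds the genes of loricrin, the small proline-rich proteins, involucrin and profilaggrin. The other members called against the whole newborn, such as Krt10 and Asprv1, lie on other chromosomes. In these bladders the members of this run split, with Ivl and Sprr1a above the whole newborn and Lor, Sprr1b and Flg far below it. Their promoters are shown because these 5 genes lie in the same run. Each line gives the 250 bases before the start of the gene from RefSeq, in the coordinates of GRCm38.p6 and read 5′ to 3′ along the gene's strand, and capitals mark the AP-1 motif TGANTCA.
Ivl, chr3:92573736-92573985, minus strand: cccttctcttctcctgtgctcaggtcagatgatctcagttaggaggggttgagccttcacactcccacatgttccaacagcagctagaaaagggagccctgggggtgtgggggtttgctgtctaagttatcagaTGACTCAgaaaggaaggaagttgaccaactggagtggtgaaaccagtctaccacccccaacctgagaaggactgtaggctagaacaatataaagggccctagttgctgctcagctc
Sprr1a, chr3:92485882-92486131, minus strand: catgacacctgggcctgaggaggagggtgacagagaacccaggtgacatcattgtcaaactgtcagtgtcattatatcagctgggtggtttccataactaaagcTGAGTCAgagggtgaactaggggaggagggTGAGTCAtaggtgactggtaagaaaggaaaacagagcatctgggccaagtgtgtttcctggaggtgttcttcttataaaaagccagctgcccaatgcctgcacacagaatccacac
Sprr1b, chr3:92438780-92439029, minus strand: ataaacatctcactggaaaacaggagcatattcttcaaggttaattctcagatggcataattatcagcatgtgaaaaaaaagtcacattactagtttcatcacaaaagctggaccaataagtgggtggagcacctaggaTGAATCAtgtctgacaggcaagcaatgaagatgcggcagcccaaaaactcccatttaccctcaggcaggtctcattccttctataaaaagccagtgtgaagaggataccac
Lor, chr3:92083143-92083392, minus strand: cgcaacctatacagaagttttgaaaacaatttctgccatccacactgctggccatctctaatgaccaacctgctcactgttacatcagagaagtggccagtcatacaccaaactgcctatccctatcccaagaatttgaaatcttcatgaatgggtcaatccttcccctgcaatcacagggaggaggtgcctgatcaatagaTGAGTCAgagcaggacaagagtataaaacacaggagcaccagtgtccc
Flg, chr3:93273296-93273545, plus strand: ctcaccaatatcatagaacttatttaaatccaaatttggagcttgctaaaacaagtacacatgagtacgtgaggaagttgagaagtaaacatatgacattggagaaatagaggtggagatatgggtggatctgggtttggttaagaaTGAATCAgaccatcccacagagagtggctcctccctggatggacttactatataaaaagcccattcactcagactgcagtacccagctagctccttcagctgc

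The AP-1 motif, bound by Fos and Jun proteins, stood in all 5 promoters, with 2 matches in Sprr1a. Its first base lay 116 bases before the start in Ivl, 146 and 116 in Sprr1a, 111 in Sprr1b, 48 in Lor and 103 in Flg. RefSeq promoters were at hand for 22 of the 36 members, with 24 promoters in all. From 250 bases before to 50 after the start, on both strands, 7 of the 24 (29.2%) held the motif, against 7.81% of 32851 promoters of all genes. The other 2 were Sbsn, 119 and 6 bases before the start, and Krtdap, 81 bases before it. The box CACCC, which Klf proteins can bind, was in 20 of the 24 (83.3%) and in 57.5% of all promoters, and the motifs were counted separately where they overlap. Of the 5 promoters shown, that of Ivl held 2 such boxes, Sprr1a 4, Sprr1b 1, Flg 1 and Lor 0. A match of letters is a description and not a binding site.

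Against the whole newborn, more members were lower in bladder than higher, and the higher ones were involucrin and Sprr1a. In postnatal day 1 bladder 2 members were higher and 17 lower of the 33 tested, and 14 did not pass. Of all 13745 genes tested, 9.58% were called, 3.19% higher and 6.39% lower. In adult bladder 2 were higher and 19 lower of 33, where 15.3% of all 13504 genes were called, 6.1% higher and 9.23% lower. The median difference over the 34 members was -2.32 for postnatal day 1 bladder and -2.64 for adult bladder on the scale of log2(intensity + 49), beside -0.09 and -0.15 over all genes. A gene was tested if it lay above its array's median on at least 1 of the 4 arrays compared, and it was called at an adjusted p under 0.05 (limma, adjusted over all probe sets tested). Through the whole newborn array alone, 12 members passed this filter in the postnatal day 1 comparison and 17 in the adult comparison, and such members had to read lower in bladder. Of the members that a bladder array carried through, 2 were higher and 7 lower of 21 in postnatal day 1 bladder, and 2 were higher and 4 lower of 16 in adult bladder. Both comparisons use the same single whole newborn array, which was assumed to vary as the bladder arrays do, and their values stand side by side. Where a pair of differences, percentages or adjusted p-values is given without a stage, adult bladder comes first.

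**Figure D1:**
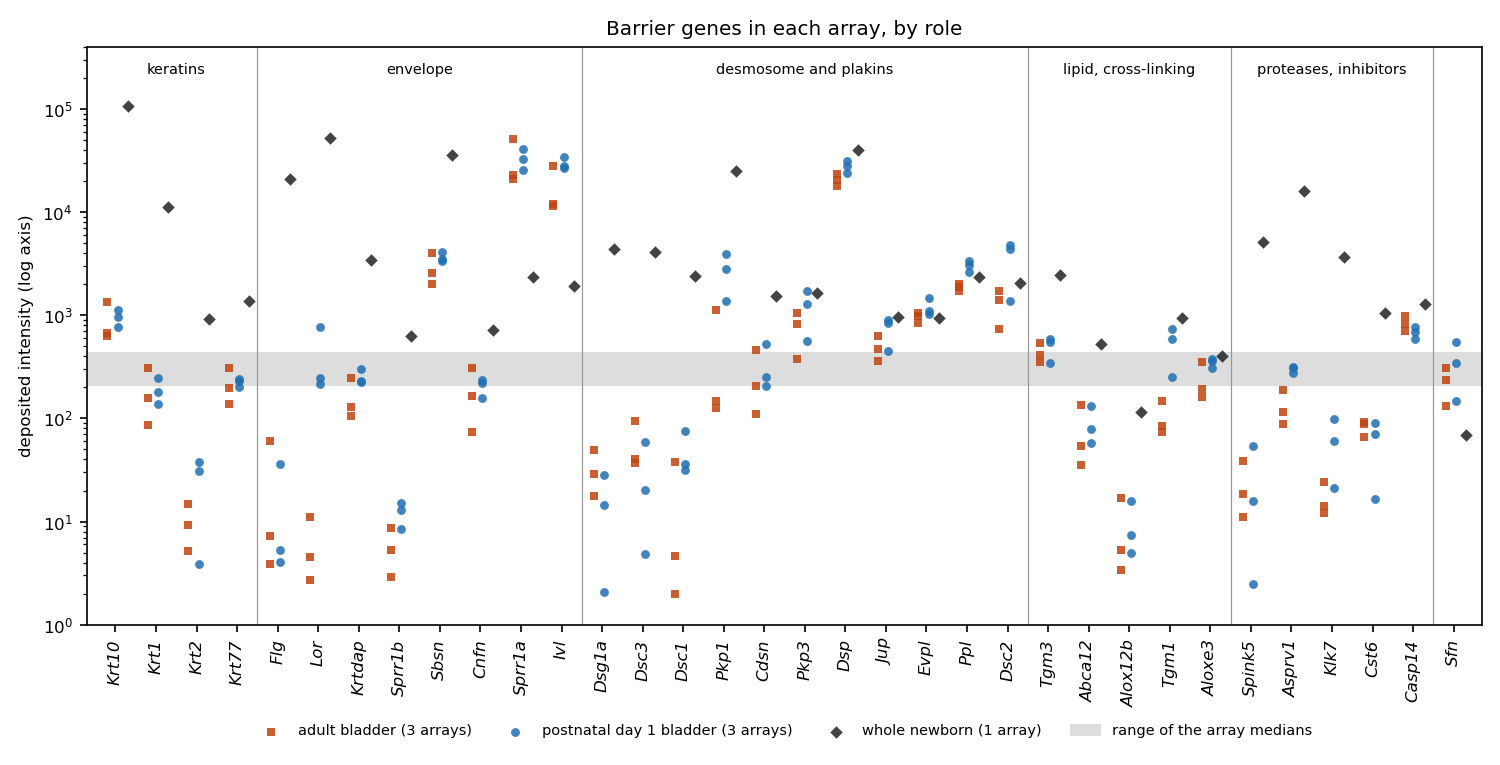
Deposited intensity on a log axis of each measured member in 3 adult bladders (squares), 3 postnatal day 1 bladders (circles) and the whole newborn (diamonds), grouped by role; the grey band spans the array medians, 208.8 to 434.1. Ivl and Sprr1a stand above the newborn in all 6 bladders, and Flg, Dsg1a, Spink5 and Klk7 fall below the grey band in all 6.

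Among the 8 measured components of the envelope, Ivl encodes involucrin, a scaffold laid down early beneath the membrane. It read 11380, 28320 and 11940 in adult replicates 1, 2 and 3, 26770, 34080 and 28220 in postnatal day 1 replicates 1, 2 and 3, and 1923 in the whole newborn. All 6 bladder arrays lay above the newborn, with means of 895% of its value in adult and 1544% in postnatal day 1 bladder. The difference was 3.91 (SE 0.485, adjusted p = 0.002) at postnatal day 1 and 2.996 (SE 0.483, adjusted p = 0.0051) in the adult. A second probe set gave 1257, 3403 and 1561 in adult, 1897, 2161 and 4324 in postnatal day 1 bladder and 61.92 in the newborn, and it too was called in both comparisons (adjusted p = 0.00436 and 0.00382).

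Sprr1a, a small proline-rich protein that cross-bridges the envelope, read 23000, 50820 and 21150 in adult, 25860, 32980 and 40900 in postnatal day 1 bladder and 2338 in the newborn. Again every bladder array was above the newborn, at 1354% of it by the adult mean and 1422% by the postnatal day 1 mean. The differences were 3.61 (SE 0.483, adjusted p = 0.00212) and 3.78 (SE 0.484, adjusted p = 0.0024). Its close relative Sprr1b did the opposite. It gave 2.91, 8.7 and 5.32 in adult and 15.06, 8.47 and 12.85 in postnatal day 1 bladder, where the newborn gave 624.3, and was lower by -3.62 (adjusted p = 0.00738) and -3.46 (adjusted p = 0.0116). Without both adult arrays that carried accessory gland transcripts, the postnatal day 1 difference of Sprr1b no longer passed (adjusted p = 0.0731). With 9 added in place of 49, neither difference of Sprr1b passed (adjusted p = 0.0516 in the adult and 0.0968 at postnatal day 1).

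Loricrin and profilaggrin, which make up much of the cornified cell, were at the other end. Flg read 3.9, 7.23 and 60.08 in adult, 5.29, 4.04 and 36.34 in postnatal day 1 bladder and 20900 in the newborn, a difference of -8.25 (adjusted p = 0.000265) and -8.39 (adjusted p = 0.00036). Lor read 10.98, 4.57 and 2.71 in adult, 214.8, 245.4 and 769.5 in postnatal day 1 bladder and 52000 in the newborn. The bladder means were 0.0117% and 0.788% of the newborn for Lor and 0.114% and 0.0728% for Flg. No bladder array of either gene came near the newborn value, and the stages overlapped for Flg but not for Lor. The deposited table has no detection calls, and for values this low the size of a log2 difference depends on the 49 that was added.

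Suprabasin and its neighbour Krtdap, both secreted by differentiating keratinocytes, lay between these extremes. Sbsn gave 2033, 4040 and 2567 in adult, 4158, 3352 and 3534 in postnatal day 1 bladder and 35960 in the newborn, or 8.01% and 10.2% of it, with differences of -3.68 (adjusted p = 0.000984) and -3.28 (adjusted p = 0.00228). By this probe set Sbsn stayed above the array median on all 6 bladder arrays, against 0 for Flg and 2 for Lor by their main probe sets. Another Sbsn probe set, at 1821 to 3978 over the bladders and 26510 in the newborn, also stayed above it. The remaining Sbsn probe set gave 67.53, 222 and 108.6 in adult, 24.04, 172.9 and 270.2 in postnatal day 1 bladder. It gave 4747 in the newborn and lay below the array median on every bladder array. Both were called lower in both comparisons. Krtdap was at 4.68% and 7.33% of the newborn and was called lower in both comparisons (adjusted p = 0.00245 and 0.0065). Cnfn, cornifelin, gave 73.26 to 305.1 over the bladders and 728 in the newborn, and did not pass (-1.89, adjusted p = 0.111, and -1.63, adjusted p = 0.189). Without adult replicate 2 the adult difference of Cnfn was -2.27 and passed (adjusted p = 0.0395).

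The 4 measured keratins of the suprabasal epidermis were called lower in both comparisons, where 6.39% of all genes were lower at postnatal day 1 and 9.23% in the adult. The postnatal day 1 call of Krt2 and both calls of Krt77 depended on the setting. Krt1 and Krt2 passed the filter through the whole newborn array alone in both comparisons and had to read lower. So did Krt77 in the adult comparison. Krt10, the type I partner of Krt1, gave 680.2, 1350 and 628.7 in adult, 765.5, 970.4 and 1119 in postnatal day 1 bladder and 107000 in the newborn. Every bladder array lay above its array's median, with means of 0.828% and 0.889% of the newborn, and the differences were -6.92 (adjusted p = 0.000152) and -6.76 (adjusted p = 0.00028). Krt1 gave 159.1, 309.7 and 86.97 in adult, 244.5, 181.5 and 137.9 in postnatal day 1 bladder and 11180 in the newborn, and all 6 bladder values were at or below the array medians. Krt2, of the upper layers, was at 1.05% and 2.63% of the newborn. Its postnatal day 1 call (adjusted p = 0.00944) was lost with 9 added (0.0828), without both adult arrays with accessory gland transcripts (0.0609) and in a fit of the 4 compared arrays alone (0.0644). Krt77 was at 15.5% and 16.1%, with differences of -2.49 (adjusted p = 0.0233) and -2.40 (adjusted p = 0.0337). With each array centred on its median, its postnatal day 1 difference no longer passed (adjusted p = 0.0691). The call of Krt77 was lost for postnatal day 1 bladder without postnatal day 1 replicate 1 (adjusted p = 0.0676) or 2 (0.0673) or adult replicate 1 (0.0652) or 3 (0.056), and for adult bladder without adult replicate 1 (0.0629) or 3 (0.0733) or both (0.176).

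**Figure D2:**
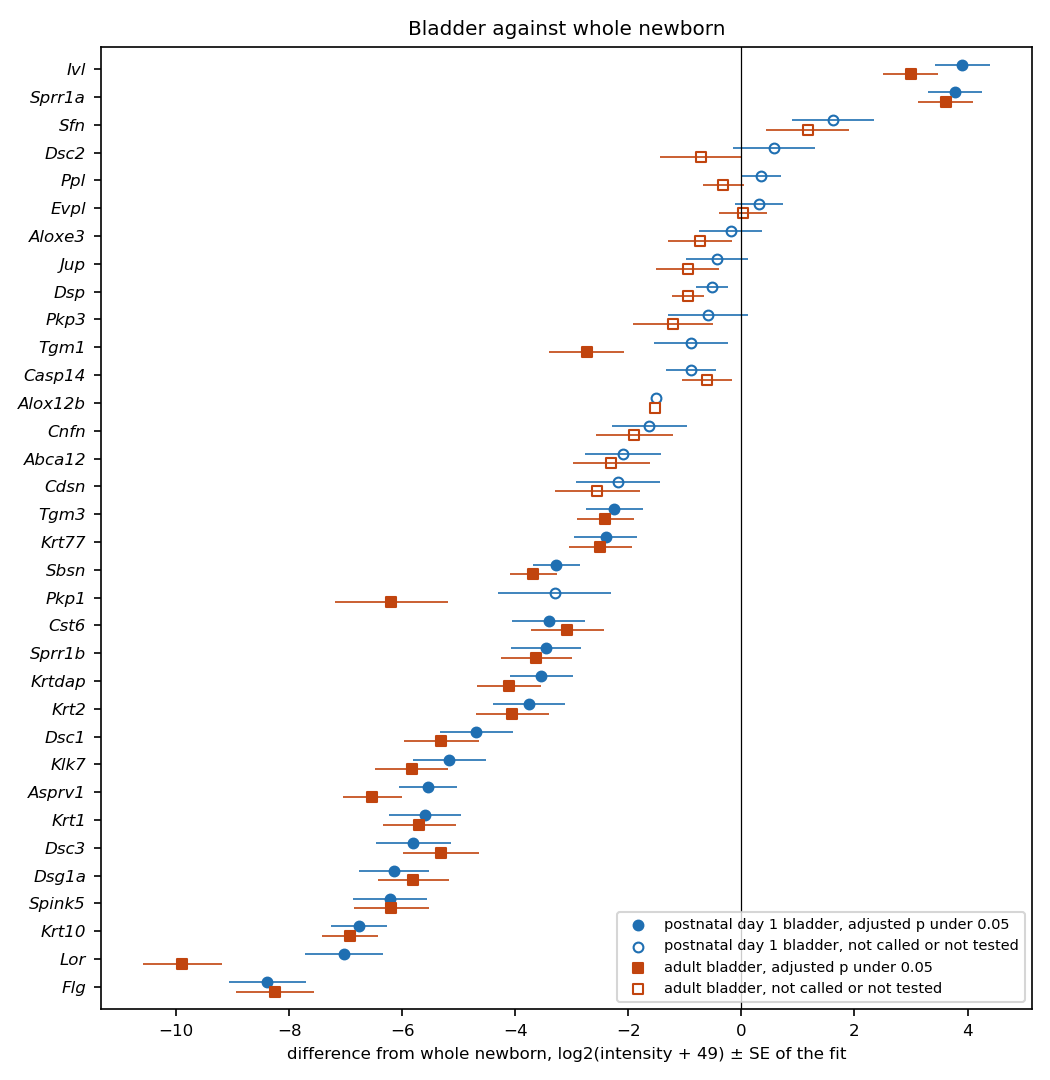
Difference of each measured member from the whole newborn on the scale of log2(intensity + 49), with the SE of the fit as bars, for postnatal day 1 (circles) and adult bladder (squares); filled symbols had an adjusted p under 0.05, and Alox12b was not tested. From top to bottom the members run from Ivl (postnatal day 1 3.91, adult 2.996) to Flg (-8.39 and -8.25), and Evpl, Ppl, Jup, Dsp and Pkp3 have open symbols in both comparisons.

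Of 11 measured desmosomal genes, 3 were lower in postnatal day 1 bladder and 4 in adult bladder than in the newborn, and 0 were higher, with medians of -0.59 at postnatal day 1 and -1.21 in the adult. The lower ones were cadherins of stratified epithelium, Dsg1a, Dsc1 and Dsc3, and in adult bladder also the plakophilin Pkp1. Dsg1a, the desmoglein of the upper epidermis, gave 17.52, 49.35 and 28.93 in adult, 14.6, 28.33 and 2.09 in postnatal day 1 bladder and 4413 in the newborn (-5.80, adjusted p = 0.000809, and -6.14, adjusted p = 0.000803). Dsc1 gave 4.65, 37.92 and 2 in adult, 31.95, 36.2 and 76.14 in postnatal day 1 bladder and 2406 in the newborn. Dsc3 gave 93.82, 37.22 and 40.85 in adult, 4.85, 20.24 and 59.61 in postnatal day 1 bladder and 4078 in the newborn. All 3 cadherins were at or below the array median on every bladder array, and at most 2% of the newborn by their means. They passed the filter through the whole newborn array alone and had to read lower, whereas Pkp1 passed through an adult array. Of all genes tested, 3.19% were higher and 6.39% lower at postnatal day 1, and 6.1% and 9.23% in the adult.

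Dsc2, a desmocollin of simple and stratified epithelia, did not pass in either comparison. It gave 1423, 744.6 and 1720 in adult, 1364, 4787 and 4417 in postnatal day 1 bladder and 2038 in the newborn. The postnatal day 1 arrays fell on both sides of the newborn and the adult arrays below it, and neither difference passed (0.58, SE 0.724, adjusted p = 0.696, and -0.71, SE 0.722, adjusted p = 0.586). A second Dsc2 probe set gave 110.8 to 499.8 over the bladders and 956.8 in the newborn, so that the mean of the probe sets turned the postnatal day 1 difference to -0.45 (adjusted p = 0.731). Dsg2, the desmoglein of simple epithelia and not a member, gave 19670 to 24420 in adult, 21290 to 32210 in postnatal day 1 bladder and 8612 in the newborn. It was higher in both comparisons (1.39, adjusted p = 0.0238, and 1.52, adjusted p = 0.0217). Cdsn, corneodesmosin, which glues the cornified cells, gave 465.3, 204.2 and 109.4 in adult, 522, 252.2 and 205 in postnatal day 1 bladder and 1556 in the newborn. All 6 bladder values of Cdsn were below the newborn, but it did not pass (-2.55, adjusted p = 0.0597, and -2.19, adjusted p = 0.118). Without adult replicate 1 its adult difference was -3.002 with adjusted p = 0.0448.

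Of the plaque and plakin genes, 5 (Dsp, Jup, Pkp3, Evpl and Ppl) did not pass in either comparison. Dsp, desmoplakin, gave 18080, 23440 and 20660 in adult, 23920, 31670 and 28160 in postnatal day 1 bladder and 39730 in the newborn. By its means it was at 52.2% and 70.3% of the newborn, and the differences did not pass (-0.95, SE 0.28, adjusted p = 0.0614, and -0.52, SE 0.278, adjusted p = 0.315). Without adult replicate 2 the adult difference was -1.04 and passed (adjusted p = 0.023). Jup, plakoglobin, gave 360.9, 627.4 and 471.6 in adult, 834.7, 909.6 and 449.1 in postnatal day 1 bladder and 962.9 in the newborn. Its differences were -0.95 (SE 0.554) and -0.43 (SE 0.55), with adjusted p = 0.321 and 0.705. Pkp3, a plakophilin of most epithelia, gave 1054, 375.7 and 815.7 in adult, 563, 1293 and 1726 in postnatal day 1 bladder and 1663 in the newborn (-1.21, SE 0.706, adjusted p = 0.32, and -0.59, SE 0.706, adjusted p = 0.682). With each array centred on its median, the postnatal day 1 differences of Dsp, Jup and Pkp3 turned positive (0.17, 0.25 and 0.09), and none passed.

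Envoplakin and periplakin, partners that start the envelope at the membrane and bind keratin, had adult values on both sides of the newborn for Evpl and below it for Ppl. Evpl gave 1046, 995.6 and 847.4 in adult, 1027, 1100 and 1461 in postnatal day 1 bladder and 939.3 in the newborn. Ppl gave 2010, 1721 and 1899 in adult, 3046, 3350 and 2652 in postnatal day 1 bladder and 2348 in the newborn. For both, all 3 postnatal day 1 arrays stood above the newborn and did not pass (Evpl 0.32, SE 0.425, adjusted p = 0.721, Ppl 0.35, SE 0.356, adjusted p = 0.625). In the adult Evpl differed by 0.03 (SE 0.429, adjusted p = 0.977), or -0.03 without adult replicate 1, and Ppl by -0.32 (SE 0.358, adjusted p = 0.628), or 0.35 with median centring. With 1 newborn array and SEs of 0.356 to 0.429, these values do not show equal levels.

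Of the 5 cross-linking and lipid genes, 4 were tested. Of these, 1 was lower in postnatal day 1 bladder and 2 in adult bladder, where 6.39% and 9.23% of all genes were lower. Tgm3, a transglutaminase of the cornified envelope and hair, gave 354 to 535.1 in adult, 344.9 to 589.8 in postnatal day 1 bladder and 2479 in the newborn (-2.41, adjusted p = 0.0175, and -2.25, adjusted p = 0.03). Its call was lost for postnatal day 1 bladder without postnatal day 1 replicate 1 (adjusted p = 0.0512) or 2 (0.0645) or adult replicate 1 (0.0584) or 3 (0.0586), and for adult bladder without adult replicate 1 (0.0524) or 3 (0.0614). With each array centred on its median, the postnatal day 1 call of Tgm3 was lost too (adjusted p = 0.0615). Tgm1, the membrane-bound transglutaminase, gave 83.68, 146.1 and 74.25 in adult, 255, 731.7 and 583 in postnatal day 1 bladder and 934.1 in the newborn. It was lower in adult bladder (-2.74, adjusted p = 0.0292), a call lost without adult replicate 1 (adjusted p = 0.0742) or 3 (0.0826), and did not pass at postnatal day 1 (-0.89, adjusted p = 0.478). The adult call of Tgm1 was lost with median centring too. In the adult comparison Tgm1 passed the filter through the whole newborn array alone and had to read lower. Aloxe3, an epidermal lipoxygenase, gave 192.4, 352.6 and 162.9 in adult, 364.2, 308.4 and 379 in postnatal day 1 bladder and 405.9 in the newborn, and did not pass (-0.73, adjusted p = 0.464, and -0.19, adjusted p = 0.884, which turned positive with median centring and with quantile normalization). Its partner enzyme Alox12b gave 3.36 to 16.88 over the bladders and 116 in the newborn, below every array median, and was not tested. Abca12, which loads lipid into lamellar granules, gave 35.17 to 136 over the bladders and 528.8 in the newborn, without passing (adjusted p = 0.0624 and 0.101).

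Proteases and inhibitors that act in cornification or in shedding of the cornified layer were called lower in 4 of 5 cases in both comparisons. Of all genes tested, 6.39% were lower at postnatal day 1 and 9.23% in the adult. Klk7, Spink5 and Cst6 passed the filter through the whole newborn array alone in both comparisons and had to read lower. So did Asprv1 in the adult comparison. Asprv1, a protease that processes profilaggrin, gave 116.7, 188.3 and 88.97 in adult, 314.2, 275.4 and 305.5 in postnatal day 1 bladder and 16150 in the newborn (-6.53, adjusted p = 0.000239, and -5.55, adjusted p = 0.000634). Klk7, a kallikrein that cleaves corneodesmosomes, gave 12.15, 24.11 and 14.02 in adult, 21.15, 60.77 and 98.86 in postnatal day 1 bladder and 3694 in the newborn. Its inhibitor Spink5 gave 18.58, 10.97 and 38.85 in adult, 15.92, 2.49 and 54 in postnatal day 1 bladder and 5143 in the newborn. Both had differences beyond -5 in each comparison, and no bladder value of either reached its array's median. Cst6, an inhibitor of cysteine proteases, was at 7.79% and 5.68% of the newborn. Its adult call (-3.08, adjusted p = 0.0175) was lost without adult replicate 3 (adjusted p = 0.0521), without both adult arrays with accessory gland transcripts (0.114) and with 9 added (0.067). Its postnatal day 1 call (-3.41, adjusted p = 0.0146) was lost without those arrays (0.0712) and with 9 added (0.0565). Casp14, the caspase of cornification, did not pass by its main probe set, at 588.5 to 989.4 over the bladders and 1294 in the newborn (adjusted p = 0.433 and 0.273). The probe set behind this value can match other transcripts, and the second Casp14 probe set gave 7.14 to 31.34 in bladder and 248.3 in the newborn. By the mean of its probe sets Casp14 was lower in both comparisons (-1.40, adjusted p = 0.0321, and -1.46, adjusted p = 0.0357).

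Sfn encodes 14-3-3 sigma, a binding protein of stratified epithelia that restrains cell division. It gave 236.7, 308.2 and 132 in adult, 146.8, 347.6 and 551.2 in postnatal day 1 bladder and 68.39 in the newborn. Every bladder array was above the newborn, by means of 330% and 510% of it, but the difference did not pass (1.17, SE 0.733, adjusted p = 0.355, and 1.62, SE 0.728, adjusted p = 0.226). Of all 18193 genes measured, 28.4% had all 3 adult arrays and 28.7% all 3 postnatal day 1 arrays above the newborn array.

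Placed in their order on chromosome 3, Ivl and Sprr1a were the genes called higher in bladder than in the whole newborn, among those tested from Lor to Flg. RefSeq annotates 49 genes from Lor to Flg, of which 33 had a probe set of their own. At postnatal day 1, 2 were higher and 22 lower of 27 tested, where 3.19% of all genes were higher and 6.39% lower. In adult bladder 2 were higher and 24 lower of 28, where 6.1% of all genes were higher and 9.23% lower. Of the genes tested in this run, 17 and 20 passed the filter through the whole newborn array alone and had to read lower. Of those, 16 and 20 were called. Of the genes that a bladder array carried through, 2 were higher and 6 lower of 10 at postnatal day 1, and 2 were higher and 4 lower of 8 in the adult. The higher ones were in both cases Sprr1a and Ivl, at the 18th and 20th place from Lor, whereas Sprr1b at the 16th place was lower. Sprr3, at the 17th place, gave 33.17 to 162.8 in adult, 145.5 to 367.3 in postnatal day 1 bladder and 1046 in the newborn. It was lower in adult bladder (-3.04, adjusted p = 0.0266) and did not pass at postnatal day 1 (-2.03, adjusted p = 0.126). Over the 33 genes the median difference was -4.33 at postnatal day 1 and -4.29 in the adult. Many of these are Lce and Sprr2 genes, near-identical copies whose probe sets may share signal, so their single values are uncertain.

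**Figure D3:**
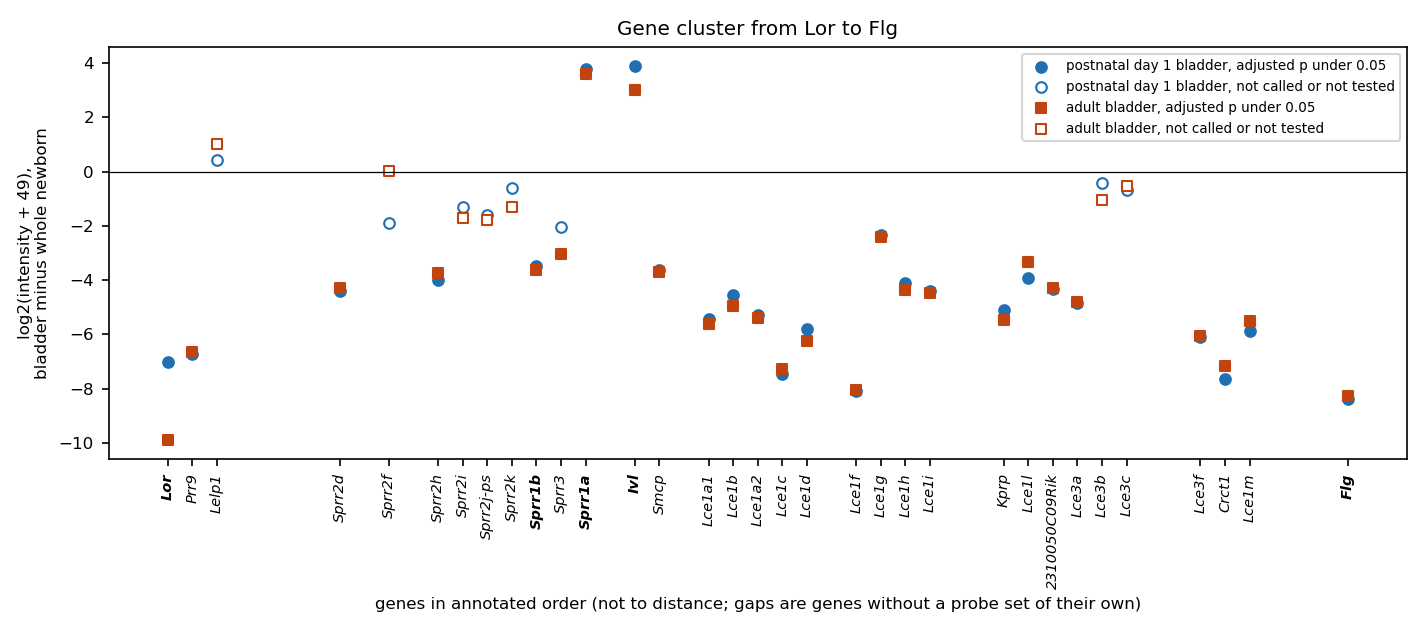
Difference from the whole newborn on the scale of log2(intensity + 49) for the 33 genes with a probe set of their own among 49 annotated from Lor to Flg, in annotated order and not to distance; names in bold are members, circles are postnatal day 1 and squares adult bladder, filled where the adjusted p was under 0.05. Sprr1a (postnatal day 1 3.78, adult 3.61) and Ivl (3.91 and 2.996) are the filled symbols above 0, beside Sprr1b at -3.46 and -3.62, and the ends of the run, Lor and Flg, lie at -7.03 or lower.

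Between the stages few members differed by the test. Of 34 measured, 17 lay above the array median on at least 3 of the 6 bladder arrays and were tested: 0 were higher and 1, Pkp1, was lower in adult bladder, with 5 at an unadjusted p under 0.05. Among all 11930 genes tested, 8.97% were called, 4.02% higher and 4.95% lower. The median over the 34 members was -0.33, beside -0.03 over all genes, and 28 of the 34 read lower in adult bladder. The stages did not overlap for 6 members (Pkp1, Lor, Tgm1, Asprv1, Ppl and Dsp), all lower in the adult, or 17.6% of those measured, where 26.4% of all genes measured did not overlap. With 3 samples in each stage, an exact permutation test of a single gene cannot go below p = 0.1.

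Pkp1, the plakophilin of stratified and cornified epithelia, gave 1116, 148.9 and 125.9 in adult, 1384, 3892 and 2839 in postnatal day 1 bladder and 25000 in the newborn. Adult replicate 1 stood above the other adult arrays and close to the lowest postnatal day 1 array, without overlap. The difference between stages was -2.89 (SE 0.703, adjusted p = 0.0388). The call was lost without postnatal day 1 replicate 1 (adjusted p = 0.0561), 2 (0.124) or 3 (0.0874), without adult replicate 2 (0.0842) or 3 (0.13), and in 4 of the other 13 alternatives. Against the newborn, Pkp1 was lower in adult bladder (-6.19, adjusted p = 0.00499). At postnatal day 1 it did not pass (-3.30, SE 0.998, adjusted p = 0.0828), or did so without adult replicate 1 (0.0203).

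Lor, below the median on 4 of the 6 bladder arrays, was not tested between stages by its main probe set, which gave a difference of -2.86. Its second probe set gave 175.3, 149.8 and 82.19 in adult, 793.6, 635.7 and 1113 in postnatal day 1 bladder and 47190 in the newborn, and was lower in the adult (-2.28, adjusted p = 0.0111). Both probe sets had every postnatal day 1 array above every adult array and every bladder array far below the newborn. Tgm1 showed the same order (-1.85, not tested). Asprv1 differed by -0.98 (adjusted p = 0.199), Ppl by -0.67 (adjusted p = 0.15) and Dsp by -0.43 (adjusted p = 0.232). Other epidermal genes did not separate the stages: Flg, Krt1, Krt10 and Dsg1a overlapped between them, with differences of 0.13, -0.11, -0.16 and 0.34.

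Ivl was lower on average in adult than in postnatal day 1 bladder without passing (-0.91, SE 0.336, adjusted p = 0.136). Its adult arrays split, with 11380 and 11940 in the replicates that carried accessory gland transcripts and 28320 in replicate 2, inside the postnatal day 1 range of 26770 to 34080. Without adult replicate 2, which also had the highest spike-in signal, the difference was -1.34 and passed (adjusted p = 0.00534). Without both replicates with accessory gland transcripts it was -0.06 (adjusted p = 0.922), with the single adult array left assumed to vary as the others. Sprr1a was also highest in replicate 2 among the adult arrays and differed by -0.17 between stages (adjusted p = 0.816), or 0.64 without both of those replicates (adjusted p = 0.3). Dsc2 differed by -1.29 (adjusted p = 0.158), or by -1.87 without postnatal day 1 replicate 1, when it passed (adjusted p = 0.0408).

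**Figure D4:**
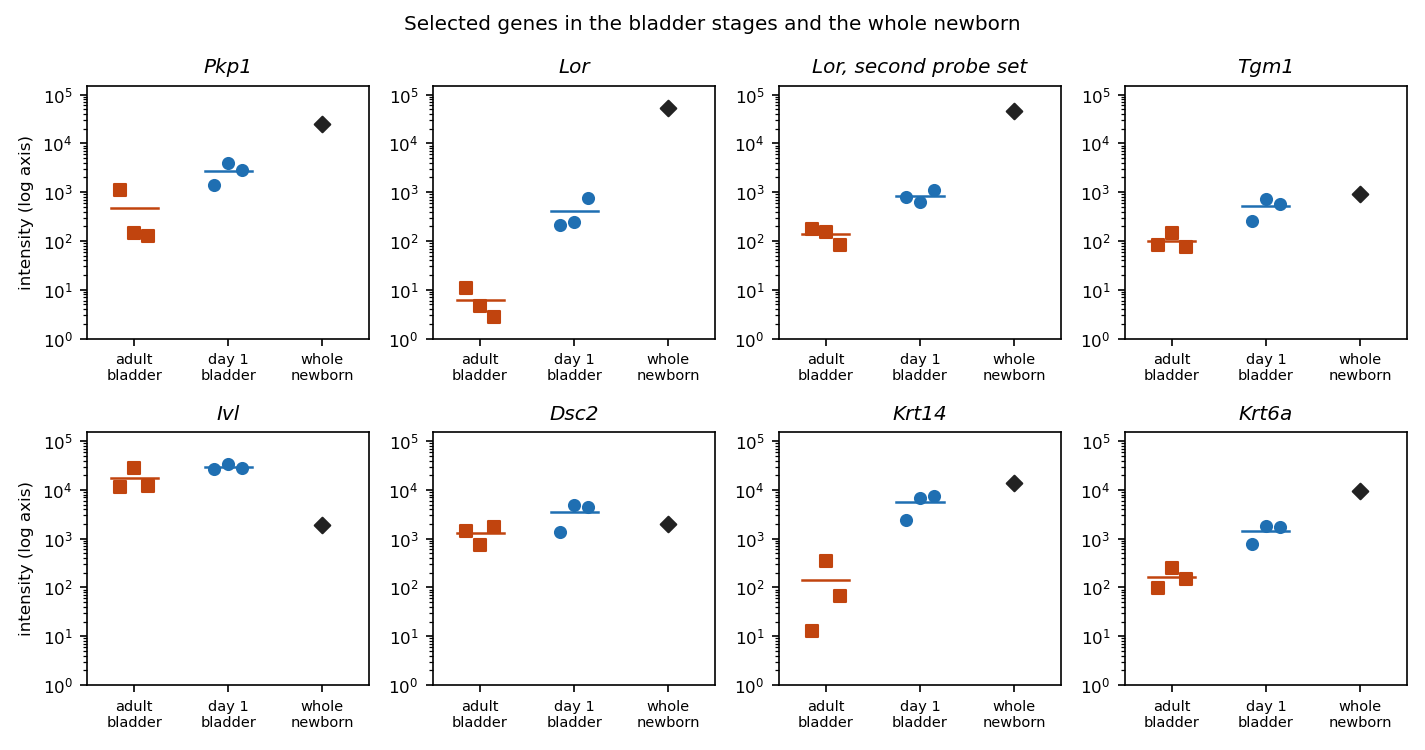
Intensity on a log axis of 6 members' probe sets (Pkp1, 2 of Lor, Tgm1, Ivl, Dsc2) and of Krt14 and Krt6a in each adult bladder (squares), postnatal day 1 bladder (circles) and the whole newborn (diamond), with horizontal lines at the stage means. Pkp1, both Lor probe sets shown, Tgm1, Krt14 and Krt6a are lower in all 3 adult than in all 3 postnatal day 1 bladders, while Ivl and Dsc2 overlap.

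Some keratins of basal and of wet squamous epithelium were lower in the adult beside Pkp1 and Lor. Krt14, a basal keratin, gave 13.04, 349.9 and 66.49 in adult, 2364, 6756 and 7431 in postnatal day 1 bladder and 13950 in the newborn (-5.13 between stages, adjusted p = 0.00369). Krt6a was lower in the adult by -2.77 (adjusted p = 0.00761) and Krt4 by -2.67 (adjusted p = 0.00379). Krt5, the partner of Krt14 in basal cells, gave 7213 to 10430 in adult and 6488 to 11750 in postnatal day 1 bladder (-0.01, adjusted p = 0.989). Of 7 basal cell markers, all tested, 2 were lower in the adult, Krt14 and Krt15 (-1.09, adjusted p = 0.0161). In the other direction, 1 was higher, Trp63 (1.00, adjusted p = 0.0236). Of all genes tested between stages, 4.95% were lower and 4.02% higher. The 8 measured markers of oral, oesophageal and other wet squamous epithelium summed to 897.8 to 1171 in adult and 3545 to 6776 in postnatal day 1 bladder, with 1 above the median in every adult array and 3 in every postnatal day 1 array. Actb, whose 3′ over 5′ signal is a sign of RNA quality, had a ratio of 3.84 to 5.15 in adult and 1.85 to 3.7 in postnatal day 1 bladder. The same ratio of Gapdh went the other way, from 15.3 to 19.6 in adult and from 19.1 to 30.9 in postnatal day 1 bladder. The part of other squamous tissue or of RNA quality in the stage differences of Pkp1 and Lor was not tested.

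Further genes of the same structures were read beside the members, from lists chosen with earlier results of these data known. Of 16 measured genes of desmosomes, adherens junctions and their keratins, 15 were tested in each comparison. Among these, 4 were higher and 0 lower in postnatal day 1 bladder than in the newborn: Krt18 (2.67, adjusted p = 0.00093), Krt8 (1.63, adjusted p = 0.0366), Dsg2 and the plakin Dst (1.27, adjusted p = 0.0276). In adult bladder 4 were higher and 3 lower, the latter being Krt14, Eppk1 and Cdh3, and 0 were higher and the same 3 genes lower in adult than in postnatal day 1 bladder. Against the newborn, Cdh3 passed the adult filter through the whole newborn array alone and had to read lower. Of all genes tested against the newborn, 3.19% were higher and 6.39% lower at postnatal day 1, and 6.1% and 9.23% in the adult. Between stages 4.02% were higher and 4.95% lower. Perp, a tetraspan protein of desmosomes, gave 27870 to 35120 over the bladders and 31610 in the newborn (adjusted p = 0.847 and 0.956).

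Of 61 measured genes of the cornified layer and its lipids outside the members, 54 were tested at postnatal day 1, with 2 higher and 28 lower than in the newborn, and 55 in adult bladder, with 3 higher and 31 lower. In each comparison 25 passed the filter through the whole newborn array alone and had to read lower. Of those that a bladder array carried through, 2 were higher and 7 lower of 29 at postnatal day 1, and 3 were higher and 8 lower of 30 in the adult. Of all genes tested against the newborn, 3.19% were higher and 6.39% lower at postnatal day 1, and 6.1% and 9.23% in the adult. Nipal4, a transporter-like protein of the epidermal lipid barrier, gave 4806 to 5225 in adult, 5645 to 18680 in postnatal day 1 bladder and 901.5 in the newborn, and was higher in both (2.40, adjusted p = 0.026, and 3.35, adjusted p = 0.00881). Hopx, a homeodomain protein, was higher at postnatal day 1 (1.54, adjusted p = 0.0364), and Ly6d (2.38, adjusted p = 0.0101) and the ceramide synthase Cers3 (1.69, adjusted p = 0.0389) were higher in the adult. Hrnr, a relative of Flg, gave 1.36 to 27.39 over the bladders and 15720 in the newborn. Between stages 27 of the 61 were tested, where 8.97% of all genes were called. Of these 1 was higher in the adult, Sprr2f (1.92, adjusted p = 0.0363), and 4 were lower: Klk13, S100a14, Cysrt1 and Tchh.

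Of 21 measured transcription factors of the barrier, all tested against the newborn, 3 were higher and 2 lower in postnatal day 1 bladder than in the newborn, and 4 were higher and 1 lower in adult bladder, where 9.58% and 15.3% of all genes were called. Grhl3, needed for the skin barrier and for the surface cells of the urothelium, gave 2072 to 2288 in adult, 2000 to 3218 in postnatal day 1 bladder and 526 in the newborn (1.96, adjusted p = 0.017, and 2.28, adjusted p = 0.012). Ehf and Gata3 were higher in both comparisons and Tfap2a was lower in both (-2.29, adjusted p = 0.0156, and -2.42, adjusted p = 0.0163). Klf4, which drives late epidermal differentiation, gave 13030 to 17400 in adult, 15810 to 23820 in postnatal day 1 bladder and 21300 in the newborn, without passing (adjusted p = 0.331 and 0.911). Trp63, the master regulator of stratified epithelium, was higher in adult than in postnatal day 1 bladder (1.00, adjusted p = 0.0236) and higher in adult bladder than in the newborn (1.93, adjusted p = 0.00444).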

How the data were processed

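The authors deposited a table of intensities on a linear scale, 1 value for each probe set and array, without detection calls. GCOS is named in the submitters' processing notes, while neither its version nor how probes were summarised and scaled is given in the sources used here. The 2% trimmed mean of each array came to 1500.01. Of 45101 probe sets, 64 controls were left out, and 34945 of the other 45037 name 1 gene. No array was centred, although the array medians spanned 0.906 (log2) over all 7 arrays and 0.485 over the bladder arrays.

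Differences on the scale of log2(intensity + 49), with 49 taken from the 20th percentile of the table, were tested two-sided in R 4.3.3 with limma 3.58.1 (lmFit, then eBayes with a trend) and adjusted by Benjamini-Hochberg over all probe sets tested. The stage fit held the 6 bladder arrays, and the fit against the whole newborn all 7 in 3 groups. The steps were tested on simulated data.

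Values in every array are given for members called between stages or higher than the newborn, up to 8 with the largest and 4 with the smallest difference from it, and desmosome and plakin members. Some others are given too, chosen after their values were seen. From other lists up to 4 genes a comparison are named, and exceptions. The members and all lists were chosen with earlier results of these data known.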

Additional observations from a re-analysis of the deposited data

How the results depend on the processing

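Of 19 alternatives, none changed which members were called higher than the whole newborn (Ivl and Sprr1a in both comparisons). Lower calls numbered 13 to 19 at postnatal day 1 and 15 to 23 in the adult, and 13 and 14 members kept their call in every setting. The postnatal day 1 median of -2.32 became -2.70 with 9 added and -2.01 with 165 added in place of 49, -1.64 with median centring, -2.11 with quantile normalization and -2.85 with probe sets whose names have no _s, _x or _a mark. The adult median of -2.64 became -2.13 with 165 added and -1.98 with median centring. Centring moved the median of all genes by 0.683 and 0.668, and turned the calls over all genes at postnatal day 1 from 439 higher and 878 lower to 1059 and 570, and in the adult from 824 and 1247 to 1689 and 824. Quantile normalization moved those medians by 0.26 and 0.273, and the split of calls to 752 higher and 802 lower and to 1215 and 1190.

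Between stages, the 1 lower call became 0 with median centring and without a trend, 2 (Lor and Pkp1) with the mean of the probe sets and with unmarked probe sets, and 0 to 1 without single arrays. The call went to Lor instead of Pkp1 without a filter, to Dsc2 without postnatal day 1 replicate 1, and to Ivl without adult replicate 2 or without the 2 arrays richest in spike-in signal. Pkp1 had adjusted p from 0.00753 to 0.136 over all alternatives.

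Signs that turned belonged to differences that did not pass. Between stages, leaving out single arrays gave Sprr1a differences from -0.566 (without adult replicate 2) to 0.005 (adult replicate 1) and 0.065 (adult replicate 3), Krt10 from -0.494 (adult replicate 2) to 0.029 (adult replicate 3) and Cdsn from -0.814 (adult replicate 1) to 0.035 (adult replicate 3). Other turns between stages were Pkp3 (0.108) without those 2 arrays, and Krt10 (0.499), Sprr1a (0.636), Sbsn (0.139), Tgm3 (0.132) and Aloxe3 (0.012) without both adult arrays with accessory gland transcripts. At postnatal day 1 against the newborn they were Dsp (0.165), Pkp3 (0.088), Jup (0.251) and Aloxe3 (0.491) with centring, Aloxe3 (0.493) with quantile normalization and Dsc2 (-0.446) with the mean of the probe sets. In the adult they were Ppl (0.349) and Casp14 (0.058) with centring and, over single arrays left out, Evpl from -0.031 (adult replicate 1) to 0.114 (adult replicate 3). The cause was not tested. No paired analysis was possible because the replicate numbers follow the accession order and pair nothing. The single newborn array and signals near background limit the size of the largest differences.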
